A study of Rattus norvegicus with 28 samples.

Results

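The 10 genes followed here belong to JAK/STAT signalling in the contused rat spinal cord: the cytokine receptor genes Osmr and Lifr, the kinase genes Jak1, Jak2 and Jak3, the transcription factor genes Stat3 and Stat6, and the inhibitor genes Socs1, Socs2 and Socs3. These 10 members, of 35469 gene features measured on the array, were chosen from earlier results of the same data, so their differences between injured and uninjured cord are a description and carry no test. RNA of whole cord segments of 1.5 cm, with the injury epicentre, was hybridised to 28 single-colour arrays in 7 groups of 4. All animals were adult female Sprague Dawley rats. T0 was cord without contusion, called sham in the labels and uninjured in the study's methods. T1, T2, T4 and T8 were cords taken 1, 2, 4 and 8 weeks after a severe contusion of 250 kdyn at the T8 level. T1_NPC cords received neural progenitor cells (NPCs) right after the contusion and were taken at 1 week, and T2_NPC cords received them 1 week after it and were taken at 2 weeks. The transplanted cells were grown from cords of adult rats that had themselves been injured 1 week earlier, and 1000000 were given in a pair of injection points beside the lesion. Injured controls were injected with an equal volume of medium that held no cells, per the study's methods. The methods also list FK-506, an immunosuppressant also known as tacrolimus, in the care after surgery that every animal had, from the day before transplantation to the end point. They give no starting day for groups without a transplant and do not name the T0 rats there, so whether T0 rats had it is not clear.

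In JAK/STAT signalling a cytokine outside the cell joins receptor chains, the JAK kinases bound to those chains phosphorylate each other and the receptor, and STAT proteins dock there, are phosphorylated, pair up and move to the nucleus to act on target genes. The Socs genes are among those targets, and their proteins bind receptors or JAKs and damp the signal that induced them. In the injured cord the pathway is known mainly for STAT3, which reactive astrocytes use as they form the border around a lesion, and for STAT6, which carries the signal of interleukin-4 and interleukin-13 in macrophages. These arrays measure mRNA, so phosphorylation, the step that turns a STAT on, was not measured.

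Some properties of the arrays touch every value that follows. For 16 of the 28 arrays, on 4 of the 7 slides, the scanner output deposited for a sample has another rank order of probes than that sample's column in the authors' value table, and the rank order of another array's output instead. All 4 T1_NPC arrays and none of the T2_NPC arrays are among the 16. The groups here follow the value table. When the scanner outputs were taken under the samples they were deposited for, no member was called in any comparison. How many of all features were called in that fit is not reported here. When only the 12 arrays without this conflict were used, 6 and 8 members were called higher than T0 at weeks 2 and 8. Over all features there were 11901 and 13314 calls in either direction. The calls over all features are in either direction, so they are no share for the members called higher. In this fit of 12 arrays T0, T2 and T8 had 2 arrays each. T1 and T4 had 1 array each, assumed to vary like the other groups, so their counts are not given. Each transplant group lay alone on its own slide and both were scanned apart from the time course, so transplant, slide and scan session cannot be told apart. T1_NPC replicate 2 stood apart from its group. Its mean Spearman correlation with the other 3 T1_NPC arrays was 0.971. It had the lowest mean log2 level of fibroblast markers in its group, 12.03 against 13.79 to 14.82, the lowest of T cell markers, 6.23 against 7.71 to 8.29, and the highest of neuron markers, 11.95 against 10.77 to 11.30. Results of T1_NPC without it stand beside those that it changed most.

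All 6 neuron markers, all 6 oligodendrocyte markers and all 6 astrocyte markers of the lists used were above background in every group. So were all fibroblast, Schwann cell and endothelial markers, so this says little about the tissue label. The makeup of the segment differed between injured and uninjured cord, and in bulk tissue fewer cells of a type and less RNA per cell cannot be told apart. From T0 to T1, 6 of 6 microglia and macrophage markers were called higher with a median log2 difference of 2.23, and their mean log2 level ran from 8.14 to 8.62 in T0 and from 11.24 to 11.81 in T1. The 6 T cell markers were also all called higher, with array means of 4.71 to 5.15 in T0 and 7.34 to 8.10 in T1. All 5 fibroblast markers and all 4 Schwann cell markers were called higher, with medians of 4.63 and 1.99. The 6 neuron markers were all called lower, with a median of -1.68, and 4 of 6 oligodendrocyte markers were called lower. Of the 6 astrocyte markers 3 were called lower and 1 higher, with a median of -0.62, and of the 4 neutrophil markers 2 were called higher. None of the 3 B cell markers was called, and 2 of them were not well above background on any T0 or T1 array. The part of these shifts in the differences of the members was not tested.

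The members were measured by 12 probes of 60 bases on 30 spots, 8 members by 1 probe and Jak1 and Stat3 by 2 probes each. The sequence of 1 probe is shown for each of the members on which the results turn, and they are written 5′ to 3′ in the sense of the transcript, with no base marked.
Osmr: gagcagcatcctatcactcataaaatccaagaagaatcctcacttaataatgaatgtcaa
Stat3: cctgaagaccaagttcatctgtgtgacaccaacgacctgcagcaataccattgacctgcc
Stat6: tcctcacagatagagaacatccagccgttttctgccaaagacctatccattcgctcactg
Socs1: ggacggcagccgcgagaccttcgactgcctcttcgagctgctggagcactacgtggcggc
Socs3: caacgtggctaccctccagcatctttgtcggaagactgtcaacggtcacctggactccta
In the rn4 coordinates of the scanner files the Osmr probe spans chr2:56081199-56081943 on the minus strand and the Stat3 probe spans chr10:89823819-89824169 on the minus strand, both longer than 60 bases because the probe crosses a splice junction. The Stat6 probe lies at chr7:67639581-67639640 on the plus strand, the Socs1 probe at chr10:4820384-4820443 on the plus strand and the Socs3 probe at chr10:107958703-107958762 on the minus strand. Exon and UTR annotation of rn4 was not used here. Levels below are log2 values after quantile normalization, and since probes differ in how well they hybridise, the level of one gene is not set against the level of another.

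**Figure D1:**
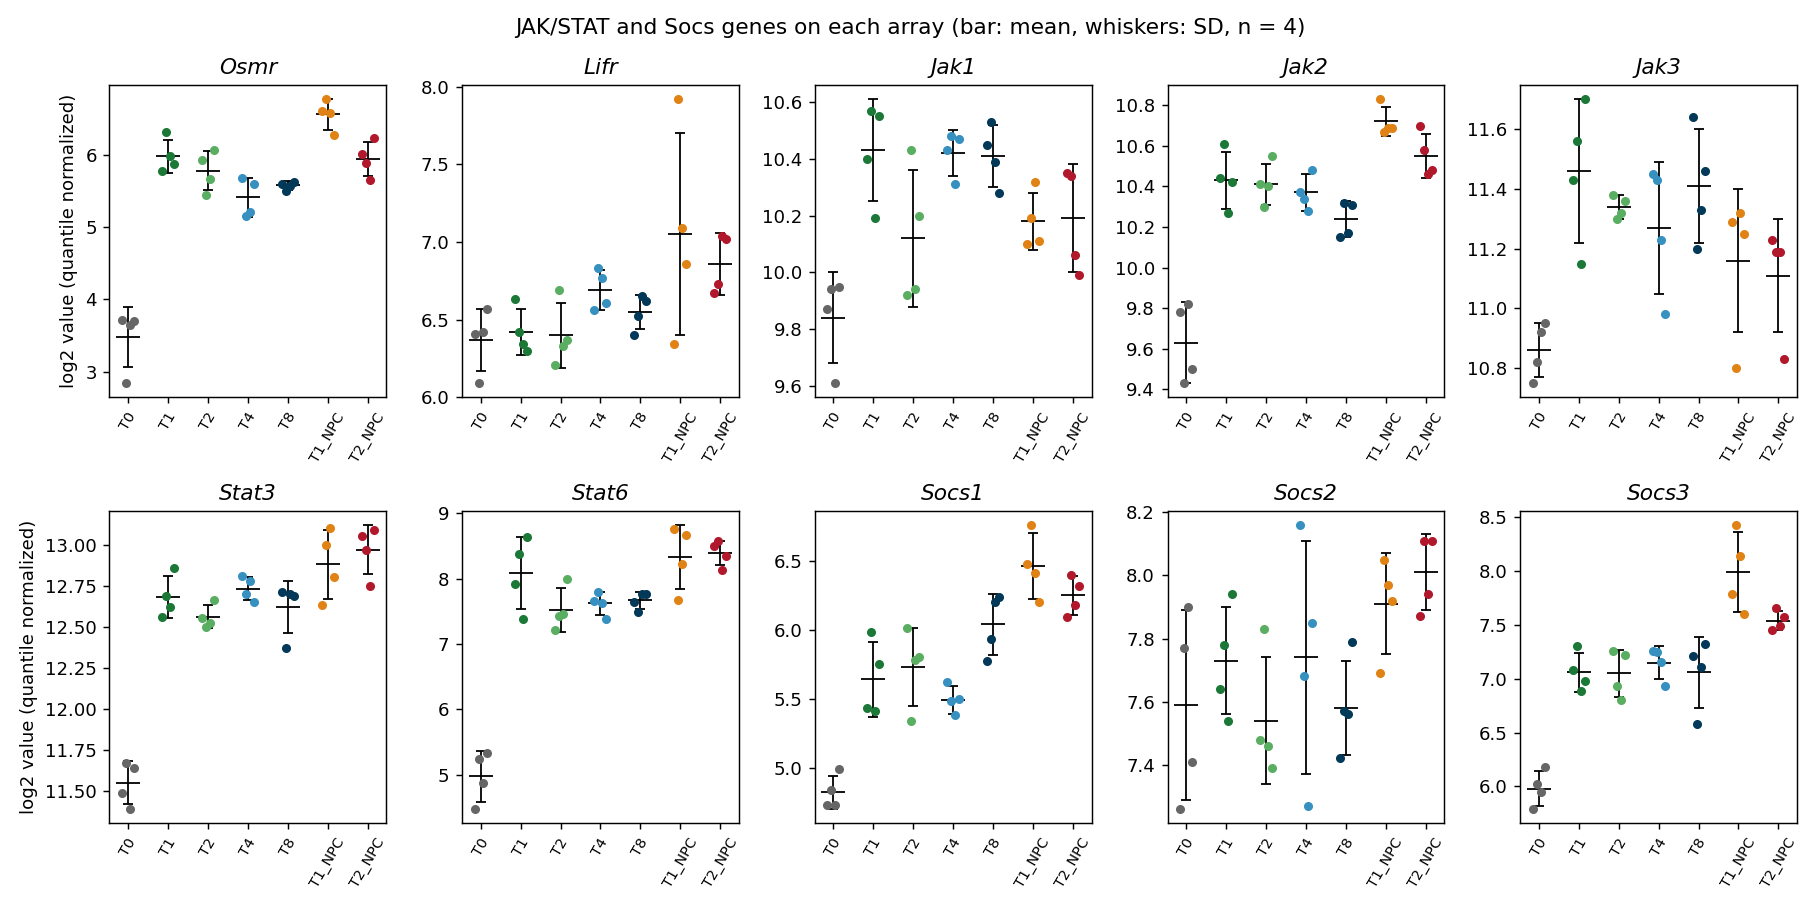
Log2 value (quantile normalized) of each member on each of the 28 arrays, by group on the horizontal axis, with the group mean as a bar and the SD as whiskers (n = 4). Osmr, Stat3, Stat6, Socs1 and Socs3 sat lower on all 4 T0 arrays than on every injured array, while for Lifr and Socs2 the T0 arrays overlapped the injured ones.

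At 1 week after contusion 8 of the 10 members were called higher than T0 at an adjusted p under 0.05 and none was called lower. Lifr and Socs2 were the members not called. The share of all 35469 features called higher in that comparison was 19.1% and the share called lower was 25.1%. The members had been chosen from this contrast, so nothing is read from their count. At 2 weeks 7 members were called higher, Jak1 no longer among them, beside 17.7% of all features called higher and 22.2% called lower. At 4 weeks the 8 members were again called higher, beside 17.5% and 21.0% of all features called higher and lower. At 8 weeks the same 8 members were called higher, beside 18.2% and 21.5% of all features. The groups did not overlap for 8, 7, 8 and 8 members at the 4 time points, beside 41.1%, 37.0%, 37.5% and 38.6% of all features in either direction. The median log2 difference of the 10 members was 0.81, 0.85, 0.70 and 0.84 at weeks 1, 2, 4 and 8, beside a median over all features of -0.10, -0.05, -0.06 and -0.04. All 4 comparisons share the same T0 arrays. The arrays of the time course were scanned in 2 sessions. The called members did not overlap T0, so a difference above 0 within a session was given in advance and is no further support. Within sessions the log2 differences of these members were 0.49 to 3.25 at 1 week and 0.47 to 2.77 at 2 weeks. They were 0.14 to 2.72 at 4 weeks and 0.48 to 2.95 at 8 weeks. T1 and T4 had 1 array each in session 1, and the 0.14 was that of Jak3 on T4 replicate 4 alone. The sessions are those of the scanner outputs matched to the value table by rank order.

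Among the receptors, Osmr encodes the chain that joins with gp130, the product of Il6st, to bind oncostatin M. Its log2 values in T0 were 3.72, 2.84, 3.64 and 3.70, and it was not well above background on any of these 4 arrays. In T1 its values were 5.78, 6.31, 5.98 and 5.87, and in T2 they were 5.93, 5.45, 5.67 and 6.07. The T0 arrays lay below all injured arrays, on each of which Osmr was well above background. In T4 the values were 5.68, 5.16, 5.21 and 5.60, and in T8 they were 5.60, 5.50, 5.57 and 5.63. The log2 difference from T0 was 2.51 ± 0.19 (SE) at 1 week, 2.30 at 2 weeks, 1.94 at 4 weeks and 2.10 at 8 weeks. Because the T0 signal gives only a bound, Osmr was at least 3.88-fold higher in T1, at least 3.37-fold in T2, at least 2.62-fold in T4 and at least 2.93-fold in T8 than in T0, taking for each T0 array the lowest signal that was well above background where that exceeded the probe's own. In the order of group means T0 (3.48) came first and T4 (5.41), T8 (5.58), T2 (5.78), T2_NPC (5.94), T1 (5.98) and T1_NPC (6.56) followed, and after the step from T0 all neighbours in this order overlapped.

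Lifr encodes the receptor for leukemia inhibitory factor, which also pairs with gp130. It varied little over the time course. Uninjured cord had a group mean of 6.37 ± 0.20 (SD, n = 4), the cords of 1 week 6.42 ± 0.15, of 2 weeks 6.40 ± 0.21, of 4 weeks 6.69 ± 0.13 and of 8 weeks 6.55 ± 0.11, and each injured group overlapped T0. The log2 difference from T0 ran from 0.03 at 2 weeks to 0.32 at 4 weeks, with an SE of 0.21. Osmr and Lifr, both partners of gp130, thus lay apart in their difference from T0 at every week.

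The kinases differed less from T0 than Osmr did. Jak1, which serves most cytokine receptors, had T0 values of 9.61 to 9.95 and T1 values of 10.19 to 10.57. Its T2 values, 9.92 to 10.43, overlapped T0, and those of T4 (10.31 to 10.48) and T8 (10.28 to 10.53) did not. The log2 difference was 0.58 ± 0.12 at 1 week, 0.28 at 2 weeks, 0.58 at 4 weeks and 0.57 at 8 weeks. The 2-week difference of Jak1 was called when T2 replicate 1 or T2 replicate 3 was left out. The 2 probes of Jak1, which lie 28552 bases apart, gave 0.54 and 0.62 at 1 week and 0.27 and 0.28 at 2 weeks, and so differed little.

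Jak2, a kinase of gp130 and of many hormone receptors, was measured by 1 probe on 10 spots. Its values were 9.43 to 9.82 in T0, 10.27 to 10.61 in T1, 10.30 to 10.55 in T2, 10.28 to 10.48 in T4 and 10.15 to 10.32 in T8. No injured array overlapped T0. The log2 difference was 0.80 ± 0.10 at 1 week, 0.78 at 2 weeks, 0.73 at 4 weeks and 0.60 at 8 weeks. Jak3, which works with the common gamma chain of lymphocyte receptors, had values of 10.75 to 10.95 in T0, 11.15 to 11.70 in T1 and 11.30 to 11.38 in T2. Its T4 values ran from 10.98 to 11.45, with the lowest just above the highest of T0, and its T8 values from 11.20 to 11.64. Its log2 differences were 0.60 ± 0.14, 0.48, 0.41 and 0.55 in the same order, and the 4-week call was lost when T0 replicate 1, T4 replicate 1 or T4 replicate 2 was left out.

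Stat3, the transcription factor below the interleukin-6 family, had T0 values of 11.49, 11.67, 11.39 and 11.64. Its T1 values were 12.56, 12.69, 12.62 and 12.86 and its T2 values were 12.55, 12.50, 12.52 and 12.66. All injured arrays lay above all T0 arrays. Its T4 values were 12.81, 12.70, 12.78 and 12.65 and its T8 values were 12.71, 12.37, 12.70 and 12.69. The log2 difference from T0 was 1.13 ± 0.11 at 1 week, 1.01 at 2 weeks, 1.19 at 4 weeks and 1.07 at 8 weeks, with no order by time.

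Stat6, the transcription factor below the receptors for interleukin-4 and interleukin-13, was measured above background in every group. Its T0 values were 4.48, 5.25, 4.87 and 5.34. In T1 they were 7.92, 8.38, 7.38 and 8.63, and in T2 they were 7.22, 7.43, 7.46 and 7.99. The gap between the highest T0 array and the lowest injured array was larger than the spread within any of these groups. In T4 the values were 7.65, 7.80, 7.63 and 7.39, and in T8 they were 7.64, 7.49, 7.77 and 7.76. The log2 difference was 3.09 ± 0.25 at 1 week, a fold of 8.53, and 2.54, 2.64 and 2.68 at 2, 4 and 8 weeks.

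Socs1 and Socs3 encode inhibitors that bind JAK kinases and, in the case of Socs3, gp130. Socs1 had T0 values of 4.73, 4.84, 4.73 and 4.99, T1 values of 5.43, 5.98, 5.41 and 5.75 and T2 values of 6.01, 5.34, 5.78 and 5.80. The T0 arrays lay below all others. Its T4 values were 5.62, 5.48, 5.38 and 5.50, and its T8 values, the highest on average in the time course, were 5.77, 5.93, 6.20 and 6.24. The log2 difference from T0 was 0.82 ± 0.15 at 1 week, 0.91 at 2 weeks, 0.67 at 4 weeks and 1.21 at 8 weeks.

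Socs3 had T0 values of 5.79, 6.02, 5.95 and 6.18 and T1 values of 7.08, 7.30, 6.89 and 6.98. In T2 it had 7.26, 6.93, 6.80 and 7.22, in T4 7.26, 7.25, 7.16 and 6.93, and in T8 7.21, 6.58, 7.11 and 7.32. No injured array overlapped T0, and T8 replicate 2 was the lowest injured array. The log2 difference was 1.08 ± 0.17, 1.07, 1.17 and 1.07 at the 4 weeks. Socs2, best known as the inhibitor of growth hormone signalling, lay apart from the other inhibitors. Its T0 values ran from 7.26 to 7.90, its group means after injury from 7.54 to 7.74, and every injured group overlapped T0. Its log2 difference from T0 lay between -0.04 at 2 weeks and 0.15 at 4 weeks, with an SE of 0.16.

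**Figure D2:**
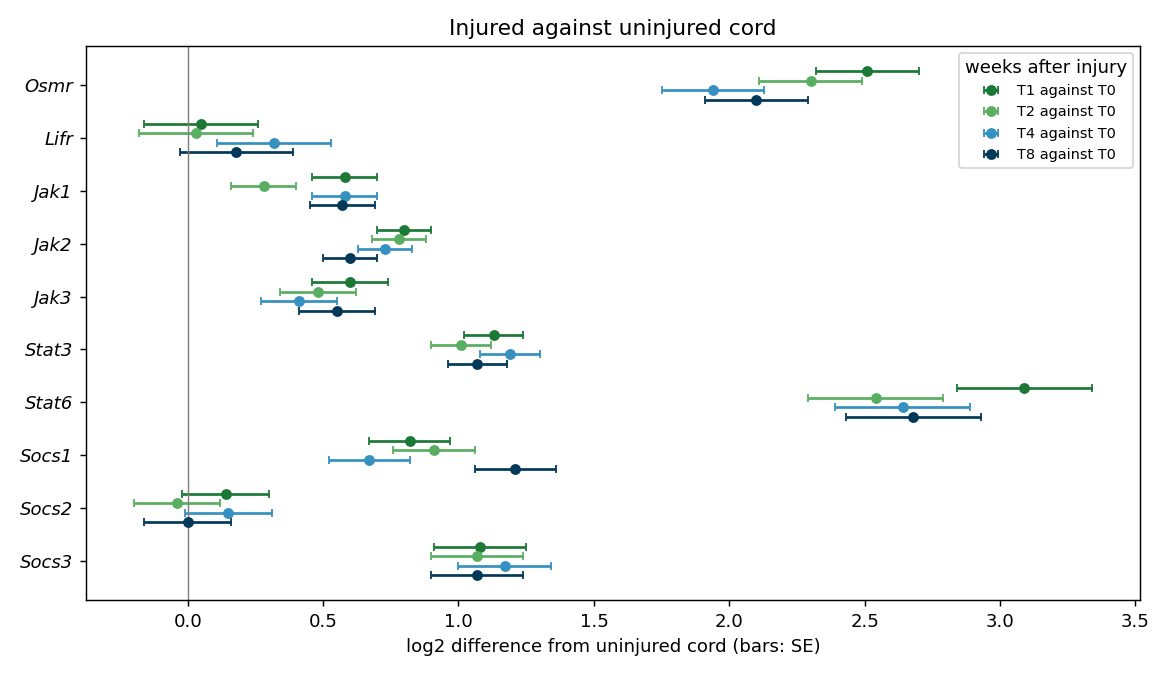
Log2 difference of each member from T0 (horizontal axis, bars are SE) at 1, 2, 4 and 8 weeks after contusion, each mean of 4 arrays. Stat6 (2.54 to 3.09) and Osmr (1.94 to 2.51) lie farthest from 0, those of Osmr being taken against T0 arrays on which it was not well above background, and Lifr and Socs2 lie within 0.32 of it at every week.

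The injured groups of the time course were also compared with each other. No member was called by limma between T1 and T2, where 1.48% of all features were called, or between T2 and T4 (0.0761%). None was called between T4 and T8 (0.0902%) or between T1 and T8 (9.87%) either. With shares this low, the lack of a call among 10 members is not read as a lack of change. At an unadjusted p under 0.05 there were 2, 1, 1 and 2 members in these comparisons, beside 13.9%, 9.02%, 4.84% and 20.9% of all features. Socs1 came nearest to a change. All 4 of its T8 arrays lay above all 4 T4 arrays, with a log2 difference of 0.54 (95% interval 0.23 to 0.86, adjusted p = 0.273), and its difference between T8 and T1 was 0.39 (0.08 to 0.71, adjusted p = 0.115). Osmr lay lower on every T8 array than on any T1 array, by a log2 difference of -0.41 (-0.79 to -0.02, adjusted p = 0.204). Stat6 was lower in T2 than in T1 by -0.55 (-1.06 to -0.04, adjusted p = 0.312) and Jak1 by -0.31 (-0.56 to -0.05, adjusted p = 0.242), both with overlapping groups. For Stat3 the interval from T1 to T8 was -0.29 to 0.16 and for Socs3 it was -0.35 to 0.34.

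In the cords transplanted right after injury, Socs3, Socs1, Lifr and Osmr were called higher than in T1, and no member was called lower. The share of all features called higher was 5.45% and the share called lower was 6.46%. The median log2 difference of the members was 0.27 beside -0.01 over all features. Socs3 had T1_NPC values of 7.79, 8.43, 8.14 and 7.60, all above its T1 values, with a log2 difference of 0.93 ± 0.17 (adjusted p = 9.51e-04). Socs1 had T1_NPC values of 6.48, 6.76, 6.41 and 6.20, also all above T1, with a difference of 0.82 ± 0.15 (adjusted p = 0.00118). These inhibitors were called in every fit that left out 1 array, and without T1_NPC replicate 2 their differences were 0.78 (adjusted p = 0.00446) and 0.72 (adjusted p = 0.00583). With slide as a random block both were called too, at 0.96 (adjusted p = 0.0037) and 0.84 (adjusted p = 0.00574). That fit assumes a correlation within slides of 0.173 for all features. It cannot separate slide from transplant, since the T1_NPC arrays lay alone on their slide. In a fit of the 8 arrays of T1 and T1_NPC alone Socs3 was called (adjusted p = 0.0487) and Socs1 was not (adjusted p = 0.0539).

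The receptor calls were less firm. Osmr had T1_NPC values of 6.61, 6.77, 6.58 and 6.28 and a log2 difference from T1 of 0.58 ± 0.19 (adjusted p = 0.0437), and its lowest T1_NPC array lay below its highest T1 array. Lifr had T1_NPC values of 6.34, 7.92, 7.09 and 6.86 and a difference of 0.63 ± 0.21 (adjusted p = 0.0472). Its highest value came from T1_NPC replicate 2 and its lowest lay inside the range of T1. Without that array Lifr differed by 0.34 (adjusted p = 0.194) and Osmr by 0.51 (adjusted p = 0.123). Over the 28 fits that left out 1 array each, Lifr was called in 5, with differences of 0.34 to 0.87, and Osmr in 17, with differences of 0.51 to 0.69. With slide as a random block neither was called (adjusted p = 0.137 and 0.122). The remaining 6 members were not called. Jak2 lay higher on every T1_NPC array than on any T1 array, 10.67 to 10.83 against 10.27 to 10.61, with a difference of 0.29 (95% interval 0.08 to 0.49, adjusted p = 0.0611). Jak1 differed by -0.25 (-0.50 to 0.00, adjusted p = 0.194), Jak3 by -0.29 (-0.58 to -0.01, adjusted p = 0.17) and Stat3 by 0.20 (-0.03 to 0.43, adjusted p = 0.257). For Stat6 the difference was 0.25 (-0.26 to 0.76, adjusted p = 0.555), and 0.47 without T1_NPC replicate 2 (adjusted p = 0.255). Without that array Jak3 differed by -0.17 (adjusted p = 0.476). Socs2 differed by 0.18 (-0.16 to 0.51, adjusted p = 0.516).

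In the cords transplanted 1 week after injury, Stat6, Socs1 and Stat3 were called higher than in T2 and again none lower. The shares of all features called higher and lower were 4.62% and 4.85%, and the median of the members was 0.44 beside -0.03 over all features. Stat6 had T2_NPC values of 8.49, 8.57, 8.13 and 8.35, all above T2, with a log2 difference of 0.86 ± 0.25 (adjusted p = 0.0291). Socs1 had T2_NPC values of 6.09, 6.40, 6.18 and 6.32, all above T2, with a difference of 0.51 ± 0.15 (adjusted p = 0.0341). Stat3 had T2_NPC values of 13.05, 12.97, 12.75 and 13.09, all above T2, with a difference of 0.41 ± 0.11 (adjusted p = 0.0228). These calls were lost in some fits that left out 1 array, while the differences stayed between 0.76 and 1.02 for Stat6, 0.38 and 0.61 for Socs1 and 0.37 and 0.48 for Stat3. Stat3 and Stat6 were no longer called without T2 replicate 1, 2 or 3 or without T2_NPC replicate 1, 2 or 4, and Socs1 was no longer called without T2 replicate 2 or 3 or T2_NPC replicate 2, 3 or 4. With slide as a random block none of the 3 was called, with differences of 0.84 for Stat6 (adjusted p = 0.0785), 0.50 for Socs1 (adjusted p = 0.1) and 0.39 for Stat3 (adjusted p = 0.0744). On the arrays without the conflict over scanner outputs, 4 members were called, with Socs3 added, beside 7399 calls over all features against 3359 on all arrays.

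The other members did not pass the threshold in T2_NPC. All 4 T2_NPC arrays of Socs3, at 7.45, 7.66, 7.49 and 7.57, lay above T2, with a difference of 0.49 (95% interval 0.15 to 0.84, adjusted p = 0.0649). All 4 T2_NPC arrays of Socs2, at 7.87 to 8.11, lay above T2 as well, with a difference of 0.47 (0.13 to 0.80, adjusted p = 0.0716). Thus the 3 inhibitors lay above T2 on every array, but 1 of them was called. Lifr differed by 0.47 (0.04 to 0.89, adjusted p = 0.161), Osmr by 0.16 (-0.22 to 0.55, adjusted p = 0.648) and Jak2 by 0.14 (-0.07 to 0.35, adjusted p = 0.421). Jak1 differed by 0.06 (-0.19 to 0.32, adjusted p = 0.807). Jak3 lay lower on every T2_NPC array than on any T2 array, by -0.23 (-0.52 to 0.05, adjusted p = 0.318). The groups did not overlap for 6 of the 10 members in T2_NPC against T2 and for 3 of 10 in T1_NPC against T1, beside 19.4% and 16.3% of all features.

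The members called after the early and after the later transplantation were not the same, but the difference between the transplant effects was not called for any of them. In the fit of that difference 0.299% of all features were called, and no member had an unadjusted p under 0.05, beside 11.2% of all features. The early effect minus the later one was 0.44 for Socs3 (95% interval -0.05 to 0.93, adjusted p = 0.511), 0.41 for Osmr (-0.13 to 0.96, adjusted p = 0.592), 0.30 for Socs1 (-0.14 to 0.75, adjusted p = 0.634) and 0.16 for Lifr (-0.44 to 0.76, adjusted p = 0.882). It was -0.61 for Stat6 (-1.33 to 0.11, adjusted p = 0.542) and -0.21 for Stat3 (-0.53 to 0.12, adjusted p = 0.662). Differences of more than 1 on the log2 scale lay inside the interval for Stat6 only.

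**Figure D3:**
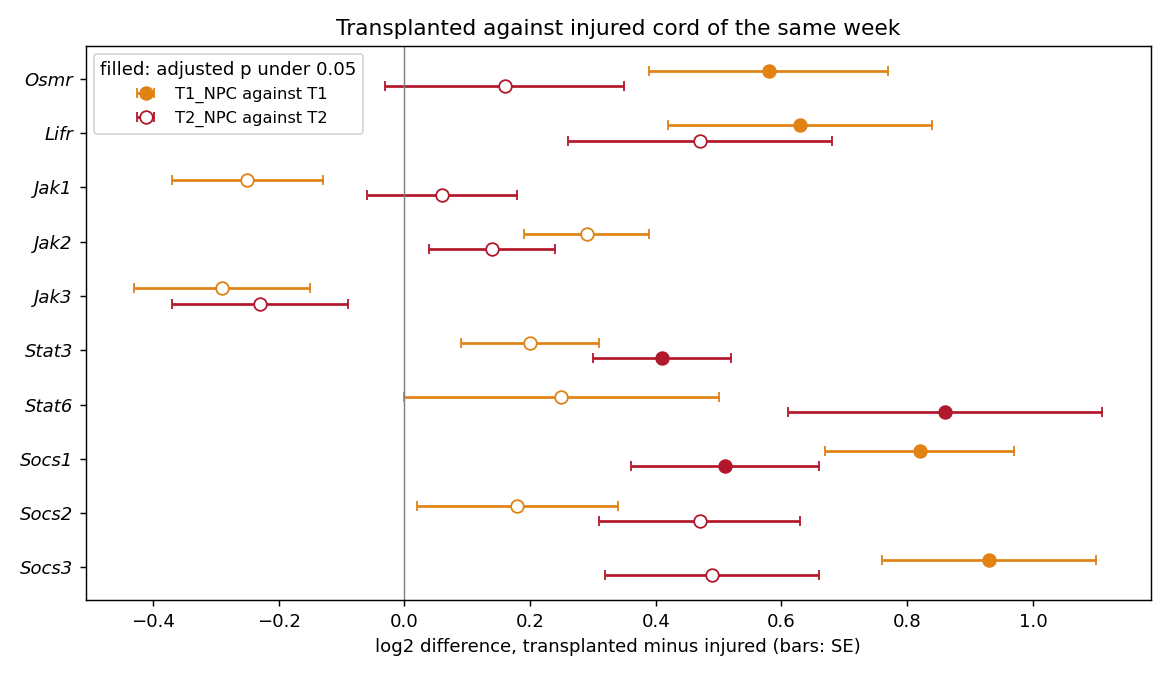
Log2 difference of each member between transplanted and injured cord of the same week (horizontal axis, bars are SE, 4 arrays a group); filled points have an adjusted p under 0.05. Socs3 (0.93) and Socs1 (0.82) lead in T1_NPC against T1 and Stat6 (0.86) leads in T2_NPC against T2, and Jak3 lies below 0 in both.

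Cell type markers moved far less with transplantation than with injury. In T1_NPC against T1, 1 of 4 endothelial markers was called higher and 1 of 4 skeletal muscle markers lower. In T2_NPC against T2, 2 of 6 oligodendrocyte markers and 1 of 4 endothelial markers were called higher. None of the markers of microglia and macrophages, T cells, neutrophils, fibroblasts, Schwann cells, astrocytes or neurons was called in either comparison. The summed level of the oligodendrocyte markers, as a mean log2 value, ran from 14.57 to 14.92 in T2 and from 15.16 to 15.28 in T2_NPC, and that of the microglia and macrophage markers from 10.67 to 11.22 in T2 and from 11.28 to 11.48 in T2_NPC. The endothelial markers ran from 7.66 to 8.06 in T2 and from 8.13 to 8.19 in T2_NPC. In all 3 lists the ranges were apart. Their part in the differences of Stat3, Stat6 and Socs1 was not tested.

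The 2 probes of Stat3 gave different accounts of transplantation. The probe whose sequence is shown above is on 1 spot. The other, at chr10:89821145-89821204 and 2614 bases away, is on 10 spots. Against T0 both were higher at every week, by 1.42 and 0.84 at 1 week, 1.11 and 0.91 at 2 weeks, 1.39 and 0.98 at 4 weeks and 1.23 and 0.91 at 8 weeks, for the 1-spot and the 10-spot probe in turn. In T2_NPC against T2 the 1-spot probe had a log2 difference of 0.84 (adjusted p = 0.00442), with values of 12.48, 12.39, 12.12 and 12.67 in T2_NPC against 11.59, 11.52, 11.46 and 11.73 in T2. The 10-spot probe had a difference of -0.03 (adjusted p = 0.893), with values of 13.61, 13.55, 13.39 and 13.51 against 13.52, 13.48, 13.58 and 13.59. The call of Stat3 in T2_NPC was thus a call of 1 of its 2 probes. In T1_NPC against T1 the probes differed in the same way, with 0.40 (adjusted p = 0.151) and 0.00.

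The 10 spots of the second Stat3 probe agreed less well with each other on the transplant arrays. Their SD within an array was 0.024 to 0.084 over the T0 to T8 arrays, 0.078 to 0.313 in T1_NPC and 0.217 to 0.374 in T2_NPC. In T2_NPC against T2 the difference by spot ran from -0.72 to 0.16, and 8 of the 10 spots were higher. The lowest was that of a spot with a T2_NPC mean of 12.78, where the others lay between 13.40 and 13.72. The median over spots was 0.06. The 10 spots of the Jak2 probe had an SD of 0.039 to 0.100 in the time course, 0.079 to 0.236 in T1_NPC and 0.070 to 0.093 in T2_NPC, and their difference in T1_NPC against T1 ran from 0.00 to 0.50 by spot. The spread of repeated spots was thus larger in both transplant groups for Stat3 and reached higher values in T1_NPC alone for Jak2, and its part in the members' differences was not tested.

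**Figure D4:**
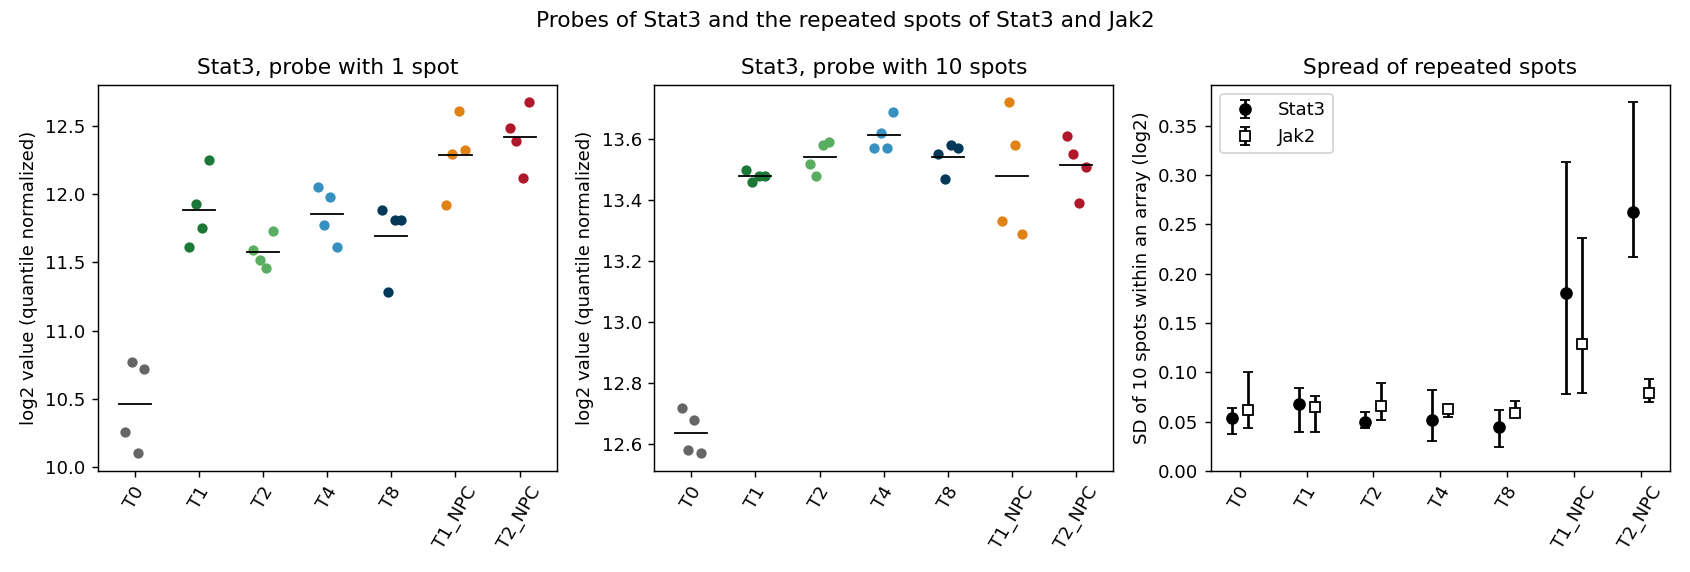
Log2 values by group of the 1-spot and the 10-spot probe of Stat3 (left and middle, points are arrays, bars are means) and the SD of the 10 spots within an array for Stat3 and Jak2 (right, median with the lowest and highest array). Both Stat3 probes lie above T0 after injury, the 1-spot probe alone is higher in T2_NPC than in T2, and the spot SD of Stat3 reaches 0.374 in T2_NPC against at most 0.084 in T0 to T8.

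The other genes of the pathway were read from 6 lists of 84 genes, of which 80 were found on the array. These lists too were set with earlier results known, so the calls and adjusted p-values of their genes against T0 are a description. Of 22 cytokine genes, 5 were called higher and 2 lower at 1 week against T0, with a median log2 difference of 0.00. Clcf1, a ligand that signals through the ciliary neurotrophic factor receptor with gp130 and Lifr, was 2.60 ± 0.23 higher (adjusted p = 3.81e-09) and stayed 2.47, 2.87 and 2.84 above T0 at 2, 4 and 8 weeks. Osm, the ligand of Osmr, was not well above background on any T0 array and was at least 2.20-fold higher in T1 (adjusted p = 2.10e-05). Il6, at least 1.50-fold higher in T1 (adjusted p = 6.39e-04), was not well above background on any T4 array or on 3 of 4 arrays in T2 and T8. Lif, a ligand of Lifr, was lower at every week, by -0.55 ± 0.15 at 1 week (adjusted p = 0.00467). Cntf, ciliary neurotrophic factor, rose by 1.15 from T1 to T8 (adjusted p = 1.46e-04).

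Of 21 receptor genes found, 15 were called higher and 2 lower at 1 week, with a median of 1.28. Among the largest rises were those of Il21r (3.25, adjusted p = 1.23e-07), Il10ra (3.24, adjusted p = 5.78e-06) and Csf3r, the receptor for the granulocyte growth factor G-CSF (3.16, adjusted p = 1.34e-06). Prlr, the prolactin receptor, was called lower (adjusted p = 2.76e-04), but was well above background on 2 of 4 T0 arrays and on no T1 array, so the size of its difference is not read. Lepr, the leptin receptor, had the largest difference of the list at 8 weeks (3.35, adjusted p = 3.88e-07) and rose by 2.07 from T1 to T8 (adjusted p = 9.68e-04). Of the 5 other JAK and STAT genes found, 4 were called higher at 1 week and 5 at later weeks, among them at 1 week Stat5b (1.31, adjusted p = 1.45e-04) and Stat2 (1.14, adjusted p = 0.00246). Of 14 other inhibitors, 8 were called higher and 3 lower at 1 week. Ptpn6, which encodes the phosphatase SHP-1 of blood cells, rose by 2.93 (adjusted p = 3.16e-14), and Sh2b3 by 2.05 (adjusted p = 4.77e-10). Ptpn6 then came down by -0.84 from T1 to T8 (adjusted p = 1.36e-04).

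All 12 genes of the STAT3 target list were called higher than T0 at each of the 4 weeks, with median log2 differences of 1.86, 1.92, 1.88 and 1.67. Since the list was set with earlier results of these data known, nothing is read from that count. Timp1, an inhibitor of matrix metalloproteinases, led at 1 week with 4.10 ± 0.17 (adjusted p = 7.75e-15), before Lcn2, a lipocalin of reactive astrocytes and neutrophils, with 3.62 ± 0.50 (adjusted p = 2.86e-06) and Bcl3 with 2.76 ± 0.17 (adjusted p = 9.85e-12). Between T1 and T8, Timp1 fell by 0.60 (adjusted p = 0.027) and Pim1 by 0.56 (adjusted p = 0.00101), while Fgg rose by 0.74 (adjusted p = 0.0229). The STAT6 target list was mixed, with 3 of 6 genes called higher and 1 lower at 1 week. Mrc1, the mannose receptor of macrophages, rose by 4.84 ± 0.27 (adjusted p = 1.06e-12) and Mgl1 by 3.30 ± 0.34 (adjusted p = 4.76e-08), while Retnla, the gene called lower, was well above background on 1 T0 array and on no other, so its difference is not read. Arg1, which encodes arginase, was 1.18 above T0 at 1 week (adjusted p = 0.00737) and fell by 2.05 from T1 to T2 (adjusted p = 0.00243). Macrophage genes stand on the STAT6 list. Its median log2 difference from T0 was 0.72, 0.95, 0.97 and 1.20 at weeks 1, 2, 4 and 8. That of the microglia and macrophage markers was 2.23, 1.73, 1.94 and 1.52, and their part in the list was not tested. The share of calls of all features stands above beside each comparison.

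After transplantation the lists held few calls. Il6st, which encodes gp130, the shared signalling chain of Osmr and Lifr, was called higher in both comparisons. Its values were 12.00 to 12.27 in T1_NPC against 11.21 to 11.59 in T1, a difference of 0.66 ± 0.18 (adjusted p = 0.0186), and 12.00 to 12.39 in T2_NPC against 10.75 to 11.36 in T2, a difference of 1.19 ± 0.18 (adjusted p = 2.30e-04). The groups did not overlap in either comparison. Junb, a gene of the STAT3 target list whose product belongs to the AP-1 factors, was also called higher in both, by 1.53 ± 0.26 (adjusted p = 4.74e-04) and 0.99 ± 0.26 (adjusted p = 0.017). In T1_NPC 3 of the 12 STAT3 targets were called, the others being Cebpd (0.78, adjusted p = 0.019) and Pim1 (0.37, adjusted p = 0.0269), and in T2_NPC Junb was the only one. Of the STAT6 targets, Mrc1 was called higher in T1_NPC (0.86, adjusted p = 0.0396) and none in T2_NPC. Without T1_NPC replicate 2 the T1_NPC difference of Junb was 1.45 (adjusted p = 0.00237), while Il6st (0.60, adjusted p = 0.0579), Cebpd (0.50, adjusted p = 0.0766), Pim1 (0.36, adjusted p = 0.0546) and Mrc1 (0.65, adjusted p = 0.152) were no longer called. No gene of the 6 lists was called in the difference of the transplant effects.

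Of the cytokines, 4 were called higher in T1_NPC and none lower, with Clcf1 at 1.17 ± 0.23 (adjusted p = 0.00213). Il10 was not well above background on any T1 array and was so on 2 of 4 T1_NPC arrays, with values of 4.10 to 6.76 (adjusted p = 0.0268), and without T1_NPC replicate 2 it was not called (adjusted p = 0.0769). Ifng was called as well but was not well above background on any of the 28 arrays, so its difference is not read. In T2_NPC, Lif was called lower by -0.57 ± 0.15 (adjusted p = 0.0199). Of the receptors, Cntfr, the chain that binds ciliary neurotrophic factor, was not well above background on any T1_NPC array and was at least 2.17-fold higher in T1 (adjusted p = 0.00383), while Ifnar1, a chain of the interferon receptor, was called higher in T2_NPC (0.93, adjusted p = 0.0424). Of the other inhibitors, Socs4 was called higher in T1_NPC (0.29, adjusted p = 0.0448) and Ptpn1 lower in T2_NPC (-0.40, adjusted p = 0.0285). Of the 11 list genes called in T1_NPC, 5 were called without T1_NPC replicate 2, among them Clcf1 (0.86, adjusted p = 0.00589) and Cntfr (adjusted p = 0.00824), while Socs4 was not (0.24, adjusted p = 0.128).

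**Figure D5:**
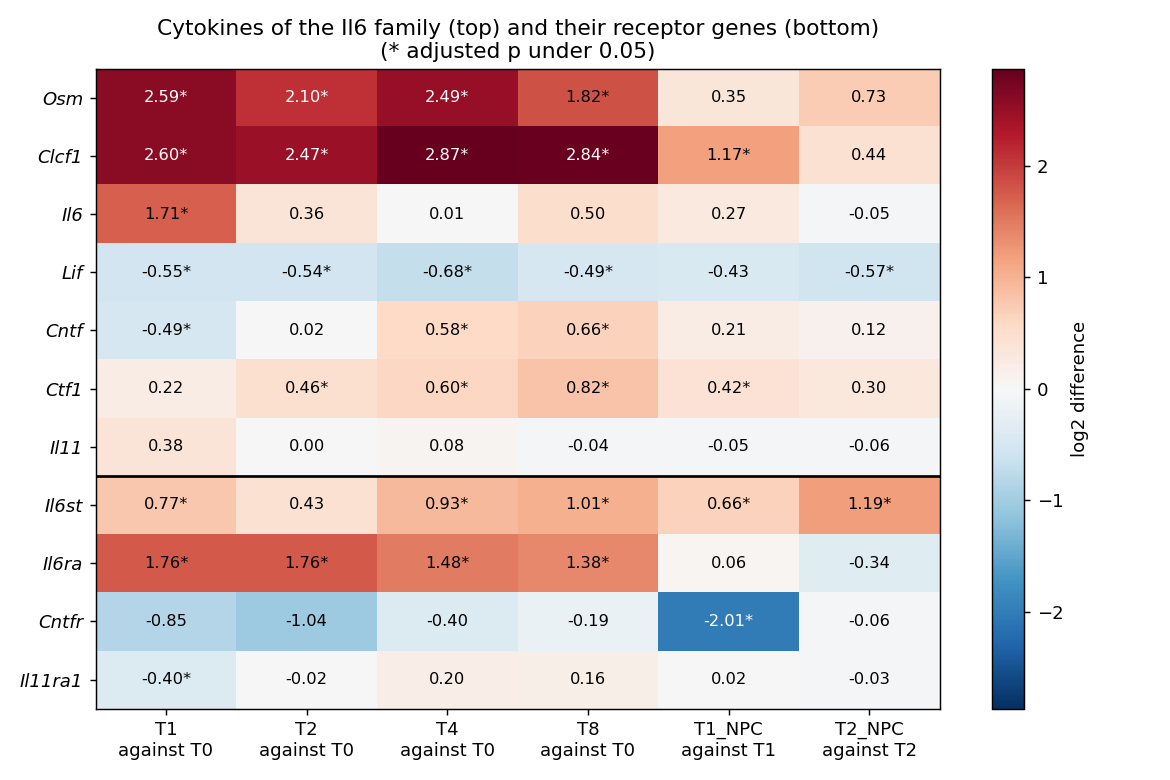
Log2 difference (colour scale) of cytokines of the interleukin-6 family (top) and of receptor genes (bottom) in the comparisons on the horizontal axis; a star marks an adjusted p under 0.05. The genes shown were chosen after their values were seen. Clcf1 and Osm are called higher in every week against T0, Lif lower, and Il6st is called in both transplant comparisons. Osm was not well above background on any T0 array, nor Il6 on any T0, T4 or T2_NPC array. Cntfr was so on no T1_NPC array and Il11 on no array. Differences that rest on these arrays are not read as sizes.

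Likeness of pattern was read as Pearson's r between a member and 10738 other named features over the 28 arrays, with no test, since arrays of a group and of a slide share their source. Stat6 had the closest neighbour of the members, Renbp at 0.987, followed by Tagln2 at 0.978 and St14 at 0.977. Osmr came next with Nid67 at 0.968, Nes, the nestin gene, at 0.955 and Flna at 0.955. The gap between T0 and the injured groups feeds these values, and over the 24 injured arrays alone r was 0.914 for Stat6 with Renbp and 0.871 for Osmr with Nid67. Jak2 was closest to Jtb (0.966), Sfrs9 (0.948) and Tlr7 (0.947). Stat3 was closest to Fam38a (0.956), Mvp (0.953) and St14 (0.952). St14 was thus among the closest features of both transcription factors over the 28 arrays. Over the 24 injured arrays its r was 0.850 with Stat6 and 0.641 with Stat3. Socs3 was closest to Sbno2 (0.940), Spg21 (0.939) and Clcf1 (0.938), and Socs1 to Olfml2b (0.927), Sphk1 (0.922) and Zdhhc7 (0.901). Jak3 was closest to Olr467-ps (0.835), Csf1r, the receptor for the macrophage growth factor CSF1, (0.823) and Ocln (0.817). Lifr was closest to Rrad (0.838), Trmu (0.820) and Ret (0.813), and Jak1 to Ankle2 (0.829), Rbpj (0.814) and Mef2a (0.809). Socs2 had no near neighbour, the closest being Paf1 at 0.667.

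Because the Socs genes are known STAT targets, the promoters of the members, taken from RefSeq on the GRCr8 assembly as 250 bases before to 50 after the gene start, were searched for the inverted repeat TTCNNNGAA, which reads the same on both strands, and for the same arms with 1 more base between them, the spacing that STAT6 is known to accept. Of 7 members with a promoter entry, Socs1 alone held TTCNNNGAA and none held the wider repeat. Of all 33469 promoters 8.87% held the first and 7.28% the second. The stretch around the match is shown because it is the only one among the members, at chr10:5389352-5389411 on the plus strand of GRCr8, with the match in capitals beginning 196 bases before the gene start.
Socs1 promoter: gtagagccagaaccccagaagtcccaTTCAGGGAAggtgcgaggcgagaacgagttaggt
A match of these letters is a description of the sequence and not a measured binding site. Jak1, Jak3 and Socs2 had no promoter entry.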

How the data were processed

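The authors deposited one table of log2 values, which by their methods are quantile-normalized single-colour Agilent signals, and per array the Feature Extraction output with spot intensity. The deposited log2 values were used, and spot averages were taken per probe (41012 probes) and then per gene (35469 features). Scanner intensity as deposited by the authors gave background flags, slide and session, through the array whose rank order matched each column (best Spearman 1.0, next at most 0.9932). On limma 3.58.1 (R 4.3.3) 1 mean was fitted per group over 28 arrays, with eBayes and Benjamini-Hochberg adjustment over all features, called at an adjusted p under 0.05. The submitters' processing notes name Agilent Feature Extraction, and the files give build rn4. Figures were made with matplotlib 3.10.9. The scripts were tested on simulated data.

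Between 74.5% and 82.7% of spots were well above background, no spot of a member was saturated, and 4 arrays a group limit the precision. The study describes the 4 arrays of a group as different biological replicates. Labels do not say which arrays share a day, and p-values measure the spread between these samples. Each transplant group lay on its own slide, so the spread within it holds no variation between slides. Members and lists were chosen with earlier results of these data known. Genes named are the members, per list and comparison at most 3 of the largest called rises and falls, per member the 3 features most alike, and markers. A bound sets the mean of the bright group against, for each dim array, the higher of the lowest signal well above background and the probe's own. Replicate numbers did not pair arrays: 18 of 84 pairs correlated above 0.1. Alternatives were other normalizations, filters, probe choices, array subsets and blocks. Protein sequences were not used here, and some genes of the lists are counted but not reported here by name.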

Additional observations from a re-analysis of the deposited data

Results flagged for a closer look

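Of 70 sets of 4 arrays (10 members in 7 groups), 5 had an array whose gap to the nearest of the others was large against the range of the set, by Dixon's ratio. Chance flags about 1 in 20 such sets, and no explanation was weighed. Osmr in T0 had its lowest value on replicate 2, 2.84 against 3.64 to 3.72 (ratio 0.909), none of them well above background. Jak2 in T1_NPC had its highest value on replicate 1, 10.83 against 10.67 to 10.69 (ratio 0.875). Jak3 in T1_NPC had its lowest value on replicate 2, 10.80 against 11.25 to 11.32 (ratio 0.865), which is the array that stood apart from its group. Jak3 in T2_NPC had its lowest value on replicate 4, 10.83 against 11.19 to 11.23 (ratio 0.900). Stat3 in T8 had its lowest value on replicate 2, 12.37 against 12.69 to 12.71 (ratio 0.941).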

How the results depend on the processing

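Counts here are of members called. With the scanner outputs under the samples they were deposited for, 0 members were called in T1, T2, T4 and T8 against T0 and 0 in each transplant comparison, and Lifr (-0.12) and Socs1 (-0.13) in T1_NPC against T1 and Socs3 in T2 against T0 (-0.09) changed sign. Calls over all features in that fit are not reported here. With Stat3 read from its brightest probe its T2_NPC difference was -0.03. Only the arrays of the groups compared gave 1 member in T1_NPC and 1 in T2_NPC, and slide as a random block (correlation 0.173) gave 2 and 0; the cause was not tested. Socs1 was called in T8 against T1, so that the count was 1, with the 75th percentile scaling and with slide as a fixed block. With 1 array left out the counts ran from 8 to 8 (T1), 7 to 8 (T2), 7 to 8 (T4) and 8 to 8 (T8) against T0, from 2 to 4 in T1_NPC, from 0 to 5 in T2_NPC, from 0 to 1 in T8 against T1 and stayed at 0 otherwise; the 5 came without T1_NPC replicate 2, with Lifr and Socs3 added. With the replicate block the counts were 8, 7, 8 and 8 against T0 and 3 in each transplant comparison, Lifr in T1_NPC falling out (adjusted p = 0.0508), and no other call changed. Of the differences of single members, 1252 kept their side of the threshold under the other alternatives. Another 54 lost the call, 10 gained it and 4 reversed. With 1 array left out, 3017 kept their side, 54 lost the call and 9 gained it. Reversed means a change of sign with a call in at least 1 of the 2 fits. Changes of sign without a call are counted among those that kept their side.

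All features called moved with these choices too. T1_NPC against T1 had 4225 calls, but 1223 on the compared arrays alone, 2236 with the random block and 7397 with the 75th percentile scaling, which moved the median of all features to 0.11 and the share of higher calls from 45.8% to 71.3%. T2_NPC against T2 had 3359, but 1623 with the random block and 7399 on undisputed arrays. The scaling also gave medians of -0.27 in T1 against T0, -0.16 in T4 against T0, 0.12 in T2 against T1, 0.15 in T8 against T1 and 0.14 for the early minus the later transplant effect. Not run were undisputed arrays for T1_NPC, which has none; slide as a fixed block for the transplants, each on its own slide; and protein identity. Normexp used median spot intensities, since 8 files hold means.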
